A study of Mus musculus with 4 samples.

Results

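The genes encoded by the mitochondrial chromosome were followed in RNA-seq of female mouse embryonic stem cells (mESCs). They were taken as the rows whose chromosome was MT, which gave 13 of the 25965 listed genes, and all 13 encode proteins. The 2 rRNA genes and 22 tRNA genes that GENCODE M21 also annotates on this chromosome were not analysed here. The study asked whether Smarca4, an ATPase of the nucleosome remodelling BAF complex, is needed for X chromosome inactivation.

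All cells came from F1 mESC lines of FVB/NJ dams and CAST/EiJ sires, grown in 2i medium with LIF. The day 0 library came from cells before differentiation, and its genotype label was a nonsilencing control. For the other 3 libraries the cells were weaned into DME HiHi serum medium, transduced on day 2 with a hairpin against no target (Nons) or 1 of 2 hairpins against Smarca4 (Smarca4-4 and Smarca4-6), selected with puromycin on day 3 and harvested on day 6. Differentiation in this medium is not directed to a cell type. The titles gave the groups, because a genotype field called all 3 day 6 libraries a Smarcc knockdown, that of Nons too. With 1 library in each group there is no spread between replicates to set a difference against, and no p-value was computed. Intervals are exact 95% intervals that cover counting error alone, as if each read were a separate molecule, which PCR copies are not, and they compare libraries rather than conditions. For a gene with many reads such an interval can exclude 0 at a small difference. The share of all genes whose interval excludes 0 is not given here, so counts of such intervals are descriptions.

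Mammalian mitochondria carry a small circular genome that is transcribed from both strands into long RNAs, which are cut at the tRNAs that lie between the genes, and most of the resulting mRNAs are polyadenylated inside the organelle. The encoded proteins are core subunits of complexes I, III and IV of the respiratory chain and of ATP synthase (complex V), while the other subunits and all the factors that transcribe and process mitochondrial RNA come from nuclear genes. Naive mESCs draw on both glycolysis and oxidative phosphorylation, and mitochondria are inherited from the mother, here of the FVB strain.

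The reads behind the values numbered 18599402 at day 0 and between 36495575 and 47143739 in the day 6 libraries, so that 3 reads corresponded to 0.161 CPM (reads scaled to the library total) at day 0 and to at most 0.0822 CPM at day 6. Smarca4 itself stood at 57.3% of its Nons level in Smarca4-4 and at 75.8% in Smarca4-6. Of the 8 pluripotency markers examined, all were at 1 CPM or more at day 0, where their summed level was 3430 CPM, against 831 to 1107 CPM at day 6. By the median difference they stood at 4.77% of day 0 in Nons, where 7 were lower and Pou5f1 was higher. The 5 smooth muscle markers summed to 0.753 CPM at day 0 and to between 721 and 1117 CPM at day 6.

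The mitochondrial genes took 375423 reads at day 0, which was 2.02% of the library (2.01% to 2.02%). In Nons they took 501971 reads, or 1.10% (1.09% to 1.10%). Smarca4-4 gave 583309 reads, or 1.24% (1.23% to 1.24%), and Smarca4-6 gave 376833 reads, or 1.03% (1.03% to 1.04%). The share was therefore highest before differentiation, and the 3 day 6 libraries lay close together. These are shares of protein-coding mitochondrial reads, with rRNA left out.

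Within each library the genes spanned a wide range. Per kilobase of gene length, mt-Co1, the catalytic subunit of cytochrome c oxidase, ranked highest of the 13 in every library, with 6638 CPM per kilobase at day 0 and 3794, 3981 and 3119 in Nons, Smarca4-4 and Smarca4-6. Its total level ranked 1 among all listed genes at day 0, and 4, 2 and 5 in the other libraries. mt-Nd1, a membrane subunit of complex I, ranked 2 of 13 per kilobase, and mt-Cytb, the subunit of complex III that binds ubiquinol, ranked 3, again in every library. mt-Nd2 ranked 4 and mt-Nd4 ranked 7 in every library, while mt-Nd5 and mt-Nd6 changed places between day 0 and day 6.

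The order then dropped sharply. The 6 genes that follow each other from mt-Co2 to mt-Nd4l (mt-Co2, mt-Atp8, mt-Atp6, mt-Co3, mt-Nd3 and mt-Nd4l) lay between 5.87 and 112 CPM per kilobase at day 0, whereas the other 7 genes lay between 704 and 6638. The medians of these groups differed 24.7-fold at day 0, and 18.6-fold, 21.1-fold and 35.5-fold in Nons, Smarca4-4 and Smarca4-6. In every library the lowest of the 7 genes was at least 5.37 times the highest of the 6. The 6 genes make up 26.3% of the summed length of the 13 but took 0.916%, 0.979%, 0.952% and 0.811% of the mitochondrial reads. They were grouped after their values were seen.

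**Figure D1:**
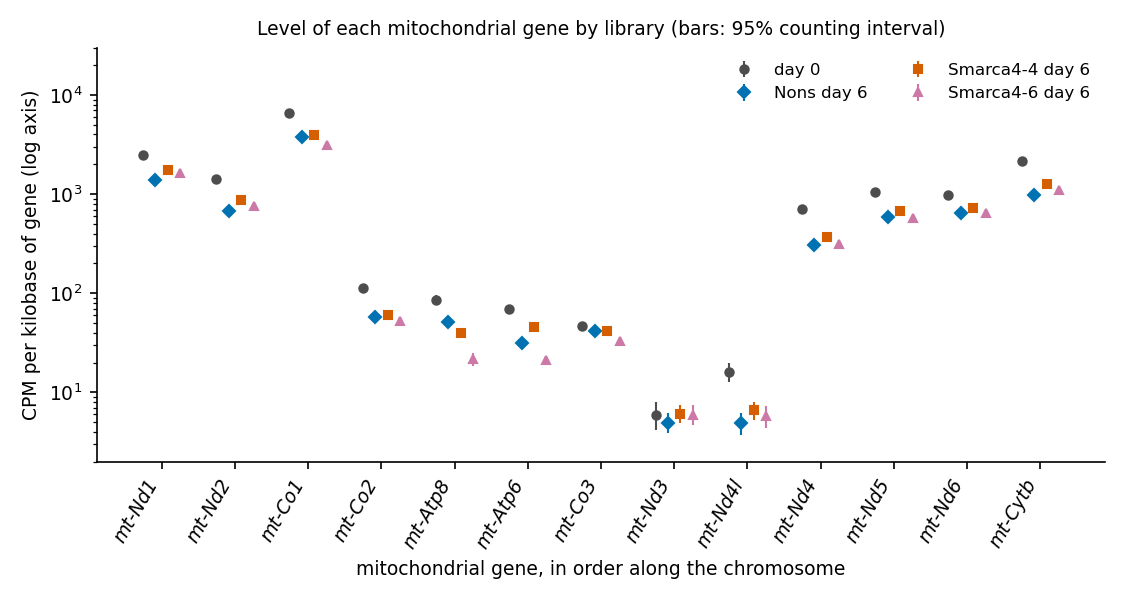
Level of each mitochondrial gene in CPM per kilobase of gene length (log axis), in the order of the genes along the chromosome, with 1 point per library and bars for the 95% counting interval. The 6 genes from mt-Co2 to mt-Nd4l lay at or below 112 CPM per kilobase in every library, and mt-Co1 was highest throughout.

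This stretch coincides with annotated nuclear copies of mitochondrial DNA. Each gene's transcript was cut into all windows of 75 bases, the read length, and each window was looked for without mismatch in the other 141730 transcripts of GENCODE M21 on GRCm38, the assembly also called mm10. For 5 of the 6 genes nearly every window was also found in an annotated copy on chromosome 1, with 99.5% for mt-Co2 (Gm28661), 99.5% for mt-Atp6 (Gm10925), 99.86% for mt-Co3 (Gm28437), 97.8% for mt-Nd3 (Gm28438) and 98.7% for mt-Nd4l (Gm10222). For mt-Atp8 no window was found, and no annotated copy covers more of it than the 43 bases that it shares with mt-Atp6. It lies between mt-Co2 and mt-Atp6, and the interval that corresponds to it on chromosome 1, 24614609 to 24614812, lies between the copies of those genes. Whether that interval matches mt-Atp8 was not analysed here.

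The 7 pseudogenes on chromosome 1 (Gm29216, Gm28661, Gm10925, Gm28437, Gm28438, Gm10222 and Gm28439) span 4663 bases on the minus strand, chr1:24611535-24616197. They keep the order of the mitochondrial genes, from within mt-Co1 (base 6381 of the chromosome) to within mt-Nd4. Their aligned parts were identical to the mitochondrial gene over 681 bases for mt-Co2, 678 for mt-Atp6, 783 for mt-Co3, 294 for mt-Nd4l and 876 for mt-Nd4. The mt-Nd3 copy differed at 1 position (T3C, mitochondrial base first, counted from 1 at the 5′ end of the gene), and the mt-Co1 copy at 6. Those 6 lie at its start, where the match begins: T1056A, C1057T, A1059G, A1060G, C1062A and A1066T. The sequences at this junction are shown 5′ to 3′ from GENCODE M21, with the differing bases in capitals, because they mark where mt-Co1 stops being distinct from the nuclear copy.
mt-Co1 from base 1054 (chrMT:6381-6440, plus strand): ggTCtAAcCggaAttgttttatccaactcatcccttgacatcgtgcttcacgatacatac
Gm29216, its first 60 bases (chr1:24616138-24616197, minus strand): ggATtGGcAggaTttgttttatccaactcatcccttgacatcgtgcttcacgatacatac
These letters are those of the reference assembly, not of the FVB mitochondria of these cells.

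Outside the stretch, the match was partial or absent. It covered 61.5% of the windows of mt-Nd4, all from its first 876 bases, and 39.8% of those of mt-Co1, which also shares windows with Gm13340 on chromosome 2. It covered 5.71% for mt-Nd2, 1.66% for mt-Nd5, and 0 windows for mt-Nd1, mt-Nd6 and mt-Cytb. Across the 13 genes the level per kilobase fell as the shared percentage rose, with Spearman's rho of -0.62 at day 0, -0.63 in Nons, -0.53 in Smarca4-4 and -0.57 in Smarca4-6. Leaving out mt-Atp8, which was low with 0 shared windows and so went against the trend, brought rho to between -0.73 and -0.74. The genes share libraries, transcripts and copies, so this is a description. How the authors' counting treated reads that match several places was not given in the sources used here, so the levels of genes with copies are uncertain, and the part of the copies in the low levels was not tested.

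**Figure D2:**
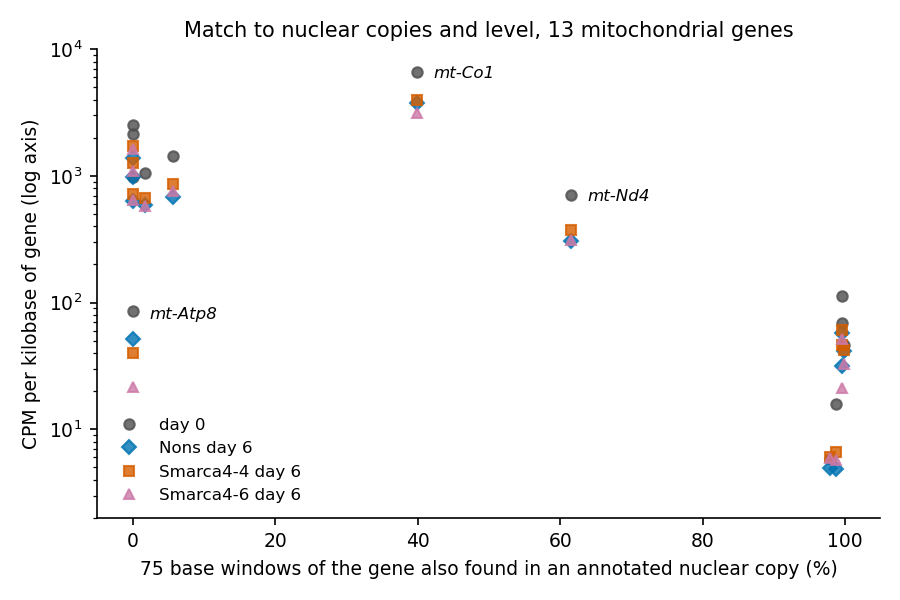
Level in CPM per kilobase (log axis) against the percent of 75 base windows of each gene that also occur in an annotated nuclear copy, with 13 genes in 4 libraries. The 5 genes at 97.8% or more lay at or below 112 CPM per kilobase, and mt-Atp8 was low with 0 shared windows.

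Among the 12 nuclear copies with a shared window, the table used here listed 1, Gm10222, the copy of mt-Nd4l. It had 103, 77, 109 and 69 reads at day 0 and in Nons, Smarca4-4 and Smarca4-6, against 88, 66, 92 and 62 for mt-Nd4l. Their ratio stayed between 0.844 and 0.899, with every interval including 1. The 2 genes thus moved side by side, and reads from one cannot be told from reads of the other. The shared sequence is that of mt-Nd4l up to its last 3 bases (shown with the 7 bases that overlap mt-Nd4 in capitals).
mt-Nd4l (chrMT:9877-10173, plus strand): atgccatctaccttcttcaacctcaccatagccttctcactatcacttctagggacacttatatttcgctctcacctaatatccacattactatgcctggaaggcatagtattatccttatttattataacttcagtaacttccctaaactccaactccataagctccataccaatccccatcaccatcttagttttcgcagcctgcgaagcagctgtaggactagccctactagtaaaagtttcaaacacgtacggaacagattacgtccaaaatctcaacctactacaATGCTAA

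Complex I, which takes electrons from NADH, has 7 mitochondrially encoded subunits, all in its membrane arm. mt-Nd1 (chrMT:2751-3707) was at 2397 CPM at day 0, 1332 in Nons, 1660.0 in Smarca4-4 and 1554 in Smarca4-6. mt-Nd2 (chrMT:3914-4951) was at 1482, 709, 896 and 788 CPM in the same order. For both, day 0 was highest and Nons lowest. mt-Nd5 (chrMT:11742-13565) was at 1932, 1078, 1224 and 1055 CPM. mt-Nd4 (chrMT:10167-11544) was at 971, 425, 511 and 429.7 CPM. Here too day 0 stood far above the rest, but Nons and Smarca4-6 lay close together.

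mt-Nd6 (chrMT:13552-14070) is the 1 member encoded on the light strand and overlaps the end of mt-Nd5 by 14 bases. It was at 512, 332, 376 and 335 CPM. Whether the counting used strand was not given in the sources used here, so its reads cannot be told from antisense RNA of the heavy strand, nor those of the genes opposite from light-strand RNA. The ends of both genes are shown because they are antisense to each other over the bases in capitals.
mt-Nd5, its last 60 bases (chrMT:13506-13565, plus strand): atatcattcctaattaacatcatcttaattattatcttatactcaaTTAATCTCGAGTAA
mt-Nd6, its last 60 bases (chrMT:13552-13611, minus strand): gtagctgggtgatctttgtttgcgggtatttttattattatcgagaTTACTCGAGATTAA
Per kilobase, mt-Nd6 was at 0.931 of mt-Nd5 at day 0 (0.910 to 0.952), and at 1.08 (1.06 to 1.10), 1.08 (1.06 to 1.10) and 1.11 (1.09 to 1.14) in Nons, Smarca4-4 and Smarca4-6. The ratio lay below 1 at day 0 and above 1 in all 3 day 6 libraries.

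The small complex I subunits mt-Nd3 and mt-Nd4l were near the limit of what counting resolves. mt-Nd3 (chrMT:9459-9806) had 38, 79, 100 and 75 reads, or 2.04, 1.73, 2.12 and 2.06 CPM. mt-Nd4l was at 4.73, 1.44, 1.95 and 1.70 CPM. mt-Nd4l overlaps mt-Nd4, with which it shares a bicistronic mRNA in mammals, yet per kilobase it was at 2.26%, 1.57%, 1.77% and 1.83% of mt-Nd4. Nuclear copies shared 98.7% of the windows of mt-Nd4l and 61.5% of those of mt-Nd4. This ratio is therefore uncertain, since how such reads were counted was not given in the sources used here.

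mt-Cytb (chrMT:14145-15288), the only complex III subunit encoded here, was at 2451 CPM at day 0, 1125 in Nons, 1436 in Smarca4-4 and 1262 in Smarca4-6. As for mt-Nd1 and mt-Nd2, Nons was the lowest library.

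Complex IV, or cytochrome c oxidase, passes electrons to oxygen. mt-Co1 (chrMT:5328-6872) was at 10255 CPM at day 0, 5861 in Nons, 6151 in Smarca4-4 and 4819.6 in Smarca4-6. mt-Co2 (chrMT:7013-7696), which receives electrons from cytochrome c, was at 76.9, 39.3, 41.4 and 35.5 CPM. For both, Smarca4-6 was the lowest library. mt-Co3 (chrMT:8607-9390), the remaining core subunit, was at 36.5, 32.8, 32.8 and 25.6 CPM, so that its day 0 level barely exceeded Nons and Smarca4-4. Per kilobase mt-Co1 exceeded mt-Co2 59.01-fold at day 0 and 60.1-fold to 66.0-fold at day 6, and it exceeded mt-Co3 143-fold at day 0 and 90.8-fold to 95.4-fold at day 6.

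ATP synthase has 2 mitochondrially encoded subunits, both in its membrane part. mt-Atp6 (chrMT:7927-8607), which forms part of the proton path, was at 46.9 CPM at day 0, 21.6 in Nons, 31.3 in Smarca4-4 and 14.5 in Smarca4-6. mt-Atp8 (chrMT:7766-7969), a short subunit, was at 17.6, 10.6, 8.17 and 4.38 CPM, from 328, 484, 385 and 160 reads. mt-Atp8 was highest at day 0 and lowest in Smarca4-6, while mt-Atp6 was higher in Smarca4-4 than in Nons. The genes overlap by 43 bases, in capitals here, and mt-Atp8 is shown because its values departed most from those of the other genes in Smarca4-6.
mt-Atp8 (chrMT:7766-7969, plus strand): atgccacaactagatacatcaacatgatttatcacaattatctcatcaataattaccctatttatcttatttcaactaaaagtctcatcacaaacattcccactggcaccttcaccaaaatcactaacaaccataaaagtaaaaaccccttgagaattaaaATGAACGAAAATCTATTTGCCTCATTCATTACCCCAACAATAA
Both are read from a bicistronic mRNA in mammals, but their ratio per kilobase differed between libraries. mt-Atp8 was at 1.25 times mt-Atp6 at day 0 (1.10 to 1.43), 1.64 in Nons (1.47 to 1.83), 0.871 in Smarca4-4 (0.777 to 0.975) and 1.01 in Smarca4-6 (0.842 to 1.21). The interval of Nons did not overlap that of any other library. However, mt-Atp6 shared 99.5% of its windows with a nuclear copy and mt-Atp8 shared 0, so their reads may have been counted differently. The part of this, and of the 43 overlapping bases, in the ratio was not tested.

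The change from day 0 to Nons day 6 asks how mitochondrial mRNA altered as the cells differentiated. All 13 genes were lower in Nons under each of 4 scalings (to the library total as deposited, to reads off the mitochondrial chromosome, by median-of-ratios size factors, and centred on the autosomal median), against 48.6% of the 13264 genes with a mean log2 CPM of at least 0. Their median difference was -0.85 on the log2 scale, beside 0.031 for all those genes, and the summed level of the 13 was at 54.3% of day 0 (log2 difference -0.88, -0.89 to -0.87). In 12 of the 13 the interval lay below 0, and that of mt-Nd3 included it, a count with no share of all genes to set it against. With 1 library at each time, a change with differentiation cannot be told apart from one between libraries, and in bulk RNA fewer cells of a type and less RNA per cell cannot be told apart.

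The differences were uneven. At least 2-fold lower were 5 of the 13 genes, mt-Nd4l (-1.71, -2.20 to -1.24), mt-Nd4 (-1.19, -1.22 to -1.16), mt-Cytb (-1.12, -1.14 to -1.11), mt-Atp6 (-1.12, -1.25 to -0.99) and mt-Nd2 (-1.06, -1.09 to -1.04), against 12.3% of all genes kept. Without the 6 genes from mt-Co2 to mt-Nd4l, 3 of 7 were. mt-Nd1 (-0.85), mt-Nd5 (-0.84) and mt-Co1 (-0.81) differed by less, and mt-Nd6 by -0.63 (-0.66 to -0.59). The smallest differences were those of mt-Co3 (-0.16, -0.29 to -0.023) and mt-Nd3 (-0.24, -0.82 to 0.36). Summed by complex, the level in Nons was lowest for complex III, at 45.9% of day 0, and highest for complex IV, at 57.2%.

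The markers moved with this comparison. The pluripotency markers other than Pou5f1, 7 of 8, were at least 2-fold lower in Nons, against 12.3% of all genes kept, while Pou5f1 was higher by 0.34. The summed level of the 5 smooth muscle markers was 1117 CPM in Nons, and 3 of them had at most 3 reads at day 0, with Acta2 and Myl9 at 0. Neural markers, 4 of 5 found, summed to 169 CPM at day 0 and 445 CPM in Nons, cardiac and striated muscle markers (8) to 44.4 and 112 CPM, fibroblast markers (5) to 7.42 and 27.1 CPM, and endoderm markers (5) to 6.29 and 4.59 CPM. The sums hide members that went the other way. Of the 3 neural markers kept, 1 was higher in Nons and 2 were lower (median -0.85). Of the 4 cardiac and striated muscle markers kept, 2 were at least 2-fold higher and 2 at least 2-fold lower. All 4 fibroblast markers kept and both endoderm markers kept were higher. The part of cell type in the mitochondrial difference was not tested, and neither was that of depth, which was lowest at day 0.

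**Figure D3:**
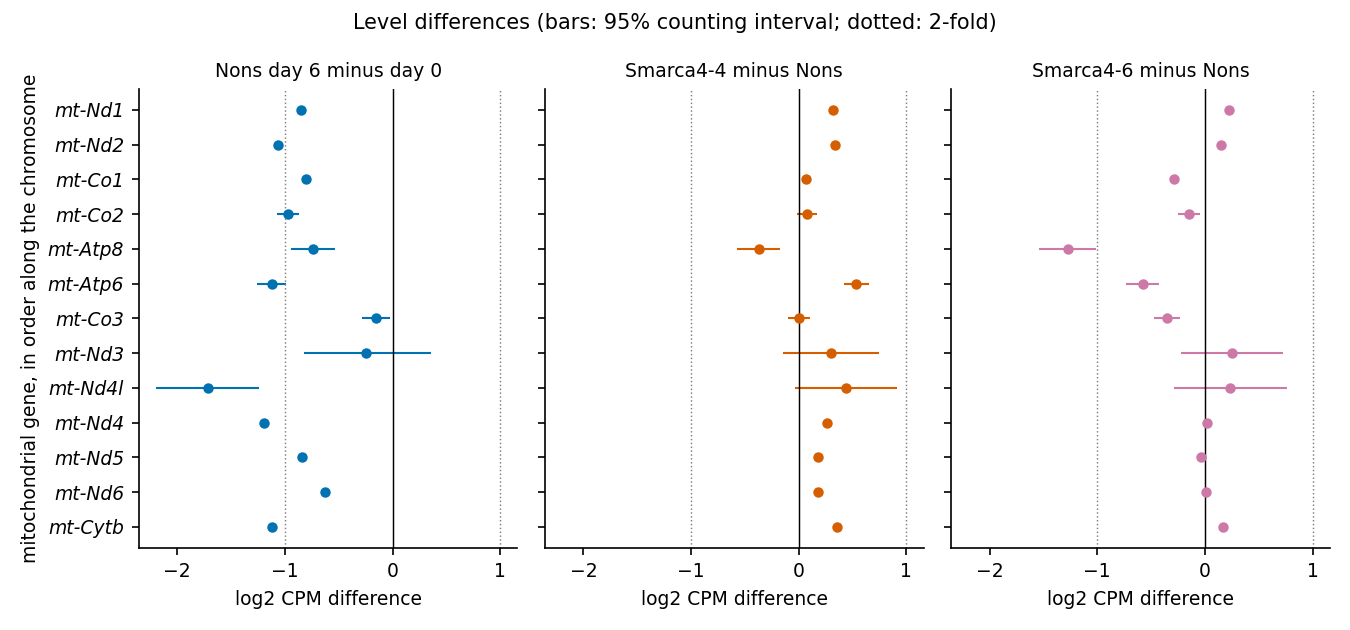
Log2 CPM difference of each mitochondrial gene for Nons day 6 minus day 0, Smarca4-4 minus Nons and Smarca4-6 minus Nons, with bars for the 95% counting interval and dotted lines at 2-fold. All 13 points of the first panel lay below 0, and mt-Atp8 in Smarca4-6, at -1.27, was the point farthest from 0 in the other panels.

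The hairpins against Smarca4 were each compared with Nons to ask whether mitochondrial mRNA differed after knockdown. Both comparisons use the same Nons library, so a high or low value there enters both. In Smarca4-4 the summed level of the 13 genes was at 113% of Nons (log2 difference 0.17, 0.17 to 0.18), and in Smarca4-6 it was at 94.1% (-0.087, -0.093 to -0.081). The median differences were 0.27 and 0.013, beside 0.038 and 0.064 for all genes kept, and that of Smarca4-6 turned to -0.061 with size factors. The direction of the sums differed, so the difference between the hairpins (0.26, 0.26 to 0.27) was necessarily larger than either difference from Nons.

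In Smarca4-4, 12 of the 13 genes were above Nons, or 11 where mt-Co3 (0.0034) turned with median-of-ratios or autosomal scaling, against 56.5% of all genes kept. None was 2-fold higher (0.882% of all genes) or 2-fold lower (0.309%). mt-Cytb was at 128% of Nons (0.35, 0.34 to 0.37), mt-Nd2 at 126% (0.34, 0.32 to 0.36), mt-Nd1 at 125% (0.32, 0.30 to 0.33) and mt-Nd4 at 120% (0.27, 0.24 to 0.29). mt-Nd5 and mt-Nd6 were both higher by 0.18, and mt-Co1 by 0.070 (0.062 to 0.077). The member farthest above Nons was mt-Atp6 (0.54, 0.42 to 0.65), and the only one below it was mt-Atp8 (-0.37, -0.57 to -0.18). The intervals of mt-Co2, mt-Co3, mt-Nd3 and mt-Nd4l included 0.

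In Smarca4-6 the genes split, with 7 of 13 above Nons, against 58.9% of all genes kept. With each of the 3 other scalings 5 were above it, since mt-Nd4 (0.016) and mt-Nd6 (0.013) turned. mt-Nd1 (0.22, 0.21 to 0.24), mt-Cytb (0.17, 0.15 to 0.18) and mt-Nd2 (0.15, 0.13 to 0.17) were higher with intervals above 0. mt-Co1 was at 82.2% of Nons (-0.28, -0.29 to -0.27), mt-Co3 at 78.3% (-0.35, -0.47 to -0.23) and mt-Co2 at 90.4% (-0.15, -0.25 to -0.042), so all 3 complex IV genes were lower. mt-Atp6 was at 67.1% (-0.58, -0.73 to -0.42). mt-Atp8, at 41.4% (-1.27, -1.54 to -1.01), was the 1 gene of 13 at least 2-fold lower, against 0.799% of all genes kept. mt-Nd5 was lower by a narrow margin (-0.032, -0.051 to -0.012), and the intervals of mt-Nd4, mt-Nd6, mt-Nd3 and mt-Nd4l included 0.

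Side by side, 7 genes were above Nons with both hairpins, 1 (mt-Atp8) below it with both, and 5 differed in direction, as deposited. For 3 of those 5, mt-Co1, mt-Atp6 and mt-Nd5, both intervals excluded 0. The share of all genes in each of these classes is not given here, so these counts are descriptions. Other scalings turned mt-Co3 in Smarca4-4 and mt-Nd4 and mt-Nd6 in Smarca4-6, which changes the split. All 13 genes were higher in Smarca4-4 than in Smarca4-6, under each of the 4 scalings, against 44.2% of all genes kept, and 11 with an interval above 0. mt-Atp6 was 2.16 times as high (216%, log2 difference 1.11, 0.97 to 1.26), the 1 gene at least 2-fold higher, against 0.415% of all genes kept. The summed pluripotency markers stood at 1065, 831 and 1107 CPM in Nons, Smarca4-4 and Smarca4-6, the smooth muscle markers at 1117, 838 and 721 CPM, and the cardiac and striated muscle markers at 112, 58.7 and 43.5 CPM. In Smarca4-4, 5 of the 8 pluripotency markers were higher than in Nons (median 0.072), although their sum was lower. Of the 4 cardiac and striated muscle markers kept, 3 were higher than in Nons in Smarca4-4 and 2 in Smarca4-6, although the sums of the 8 were lower. All 4 smooth muscle markers kept were lower with both hairpins. Among all genes kept, 56.5% and 58.9% were higher. Neural markers summed to 445, 441 and 481 CPM, fibroblast markers to 27.1, 27.5 and 24.6 CPM, and endoderm markers to 4.59, 6.38 and 7.04 CPM. Their part in the mitochondrial differences was not tested. The summed level of the 6 genes from mt-Co2 to mt-Nd4l was at 110% of Nons in Smarca4-4 and 78.0% in Smarca4-6, whereas the other 7 genes were at 113% and 94.3%.

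The share of each gene among the mitochondrial reads does not depend on the library total, although some of these reads could come from the nuclear copies. mt-Co1 took 50.8% of these reads at day 0 (50.6% to 51.0%), 53.4% in Nons (53.3% to 53.6%), 49.7% in Smarca4-4 (49.6% to 49.8%) and 46.7% in Smarca4-6 (46.5% to 46.8%). Nons was thus the highest and Smarca4-6 the lowest. The complex I genes together took 36.2%, 35.4%, 37.8% and 40.3%, and mt-Cytb 12.1%, 10.3%, 11.6% and 12.2%. The ATP synthase genes took 0.320%, 0.293%, 0.319% and 0.183%. Per kilobase, mt-Co1 stood at 2.65 times mt-Nd1 at day 0 (2.62 to 2.68), 2.73 in Nons (2.70 to 2.75), 2.30 in Smarca4-4 (2.28 to 2.31) and 1.92 in Smarca4-6 (1.90 to 1.94).

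Shares sum to 100%, so a lower mt-Co1 raises the others. With mt-Co1 left out, the share of mt-Nd1 was 24.1% at day 0, 26.1% in Nons, 26.7% in Smarca4-4 and 28.2% in Smarca4-6. That of mt-Cytb was 24.7%, 22.02%, 23.1% and 22.9%, and that of mt-Nd2 was 14.9%, 13.9%, 14.4% and 14.3%. In these 3 genes both hairpin libraries lay above Nons. mt-Nd5 held 19.5%, 21.1%, 19.7% and 19.2%, mt-Nd6 5.16%, 6.49%, 6.05% and 6.08%, and mt-Nd4 9.78%, 8.32%, 8.22% and 7.80%. In those genes both hairpin libraries lay below Nons.

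**Figure D4:**
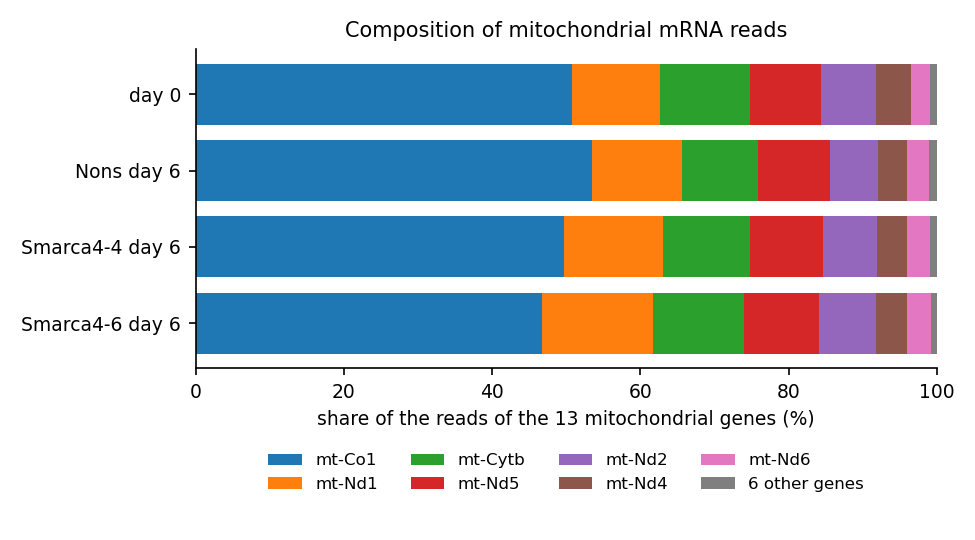
Share of each gene among the reads of the 13 mitochondrial genes (percent, horizontal axis) in the 4 libraries, with the 6 genes from mt-Co2 to mt-Nd4l summed. mt-Co1 took between 46.7% and 53.4%, and the 6 summed genes less than 1% in every library.

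The nuclear partners of these proteins were examined next. Of 79 nuclear genes on the lists used for complexes I, III, IV and V, 78 were kept. The complex given for a gene is that of its list and not a result of these data. From day 0 to Nons their median difference was 0.025, with 41 higher and 37 lower, where 48.6% of all genes kept were lower. This median turned to -0.0088 with size factors and -0.024 with centring, beside the -0.85 of the mitochondrial genes. Complex IV had the highest median (0.22, with 10 of 14 genes higher), and those of complexes I, III and V were 0.039, -0.046 and -0.040. Cox4i2 (2.53, 1.82 to 3.33), an isoform of subunit 4 of cytochrome c oxidase, and Cox7a2l (1.06, 0.96 to 1.15) were at least 2-fold higher, against 19.6% of all genes kept, and Atp5g1 (-1.88, -1.97 to -1.78), a gene for the c ring of ATP synthase, was at least 2-fold lower, against 12.3%. Atp5b, the catalytic beta subunit of ATP synthase and the most abundant of these genes, differed by -0.21 (-0.23 to -0.20) from a log2 CPM of 11.02.

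Against Nons, 66 of the 78 nuclear genes were lower in Smarca4-4 (median -0.16), against 43.5% of all genes kept, while 12 of 13 mitochondrial genes were higher. With size factors 67 of the 78 were lower (median -0.19), against 49.5% of all genes kept. By complex, 31 of 37 complex I genes, 7 of 9 complex III genes, 13 of 14 complex IV genes and 15 of 18 complex V genes were lower. In Smarca4-6, 46 of the 78 were lower (median -0.040), against 41.1% of all genes kept, with 25 of 37, 3 of 9, 12 of 14 and 6 of 18 by complex. With size factors 58 of the 78 were lower (median -0.11), against 51.2% of all genes kept, and by complex 32 of 37, 4 of 9, 12 of 14 and 10 of 18. None of the 78 passed 2-fold in either library, where 1.03% of all genes kept were at least 2-fold higher in Smarca4-6. The medians of complexes I (-0.17 and -0.082) and IV (-0.24 and -0.19) lay below 0 with both hairpins under every scaling, while that of complex V in Smarca4-6 (0.055) turned to -0.019 with size factors. Ndufa4 and Uqcrc1, the most abundant nuclear genes listed for complexes I and III, differed from Nons by -0.17 and -0.080 in Smarca4-4 and by 0.075 and 0.0041 in Smarca4-6, and Cox4i1, that of complex IV, by -0.23 and -0.075.

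**Figure D5:**
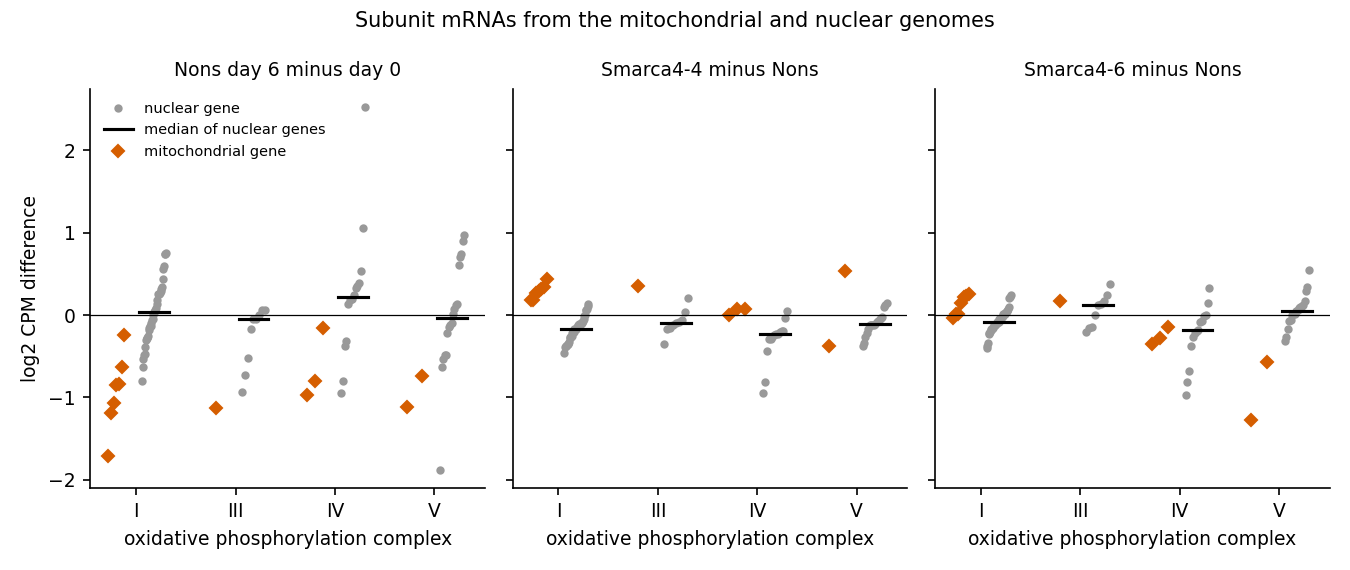
Log2 CPM difference of mitochondrial genes (diamonds) and of the nuclear genes kept for the same complexes (grey points, with the median as a bar) in 3 comparisons. Between day 0 and Nons, where all mitochondrial genes were lower, the nuclear medians were 0.22 for complex IV and between -0.046 and 0.039 for the others, and in Smarca4-4 they lay below 0 for all 4 complexes.

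Genes that transcribe, replicate and process mitochondrial nucleic acid are encoded in the nucleus. Of the 10 genes kept for mtDNA transcription and replication, 5 were higher and 5 lower in Nons than at day 0 (median -0.00097). Of all genes kept, 48.6% were lower there. None of the 10 passed 2-fold in any comparison. Lonp1, a matrix protease that degrades the mtDNA packaging factor Tfam and the most abundant of the 10, differed by -0.47. Against Nons, 9 of the 10 were higher in Smarca4-4 (median 0.074) and 8 in Smarca4-6 (median 0.17), where 56.5% and 58.9% of all genes kept were. With size factors 7 were higher in each, and 50.5% and 48.8% of all genes kept.

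Of the 18 genes kept for mitochondrial RNA processing and decay, 14 were lower in Nons than at day 0 (median -0.33), against 48.6% of all genes kept, and 3 at least 2-fold, against 12.3%. These were Elac2 (-1.20, -1.33 to -1.08) and Hsd17b10 (-1.18, -1.30 to -1.07), which belong to the enzymes that cut at the 3′ and 5′ ends of mitochondrial tRNAs, and Grsf1 (-1.02, -1.08 to -0.96), an RNA-binding protein of mitochondrial RNA granules. Lrpprc, which stabilises mitochondrial mRNAs and was the most abundant, differed by -0.68. Against Nons, 16 of the 18 were higher in Smarca4-4 (median 0.12) and 16 in Smarca4-6 (median 0.22), none by 2-fold, where 56.5% and 58.9% of all genes kept were higher. With size factors these counts were 14 and 16, where 50.5% and 48.8% of all genes kept were higher.

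Of the 10 genes kept for regulators of nuclear genes for mitochondria, 7 were lower in Nons than at day 0, against 48.6% of all genes kept, with Esrrb (-5.75), an orphan nuclear receptor of the pluripotency network, and the coactivator Ppargc1b (-2.33) at least 2-fold lower, against 12.3%, and Myc (2.80) at least 2-fold higher, against 19.6%. Gabpa, an ETS factor of many respiratory genes and the most abundant of the list over the 4 libraries, differed by -0.96. Myc was higher again with the hairpins, by 0.79 (0.70 to 0.89) in Smarca4-4 and 1.08 (0.98 to 1.17) in Smarca4-6. Of the 76 mitoribosomal protein genes, 36 were higher and 40 lower in Nons than at day 0 (median -0.016), where 48.6% of all genes kept were lower. Against Nons they split 38 to 38 in Smarca4-4, and 57 were higher in Smarca4-6 (median 0.12), where 56.5% and 58.9% of all genes kept were higher. With size factors 30 were higher and 46 lower in Smarca4-4, and 43 were higher in Smarca4-6, where 50.5% and 48.8% of all genes kept were higher. Between day 0 and Nons, Mrpl23 (1.26) passed 2-fold upwards and Mrpl35 (-1.10) downwards, and the most abundant, Mrpl12, differed by 0.46.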

How the data were processed

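RNA was extracted with a Zymo Quick-RNA kit, made into libraries with an Illumina TruSeq RNA sample preparation kit and sequenced as paired 75 base reads on a NextSeq500. The authors trimmed the reads, aligned them to mm10 with HISAT2 (TopHat is also named) after masking positions that differ between the strains, and deposited log2 CPM values per gene from SeqMonk. Beyond the name of the library kit, strand, the treatment of reads with several matches and selection of polyadenylated RNA were not given in the sources used here.

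Reads were recovered from the steps between low values, where 0 reads had been written as 0.9 of a read. Within 0.05 of a read, 100% of nonzero values up to 1000 reads and at least 99.94% of all nonzero values came out whole. Differences are between the deposited values, among genes with a mean log2 CPM of at least 0 (13264, all 13 members included). Shares and differences have Clopper-Pearson intervals, the latter conditional on the summed reads. No p-values were computed.

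All MT genes are named. Of each nuclear list, the most abundant gene and those past 2-fold are named. The members and lists were chosen with earlier results of these data known. Positions of the members equal those of GENCODE M21 on GRCm38. The recovery of reads, the intervals and the window search were tested on simulated data. The software was Python 3.11.15 with scipy 1.17.1, numpy 2.4.6, matplotlib 3.10.9 and pandas 2.3.3.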

Additional observations from a re-analysis of the deposited data

Results flagged for a closer look

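In 3 genes the hairpins against Smarca4 gave differences from Nons of opposite direction with both counting intervals away from 0. For mt-Co1 the log2 difference was 0.070 in Smarca4-4 and -0.28 in Smarca4-6. mt-Atp6 differed by 0.54 and -0.58, and mt-Nd5 by 0.18 and -0.032. Each direction rests on 1 library, both comparisons share the Nons library, and the difference between the hairpins was not tested. The share of all genes with such opposite differences is not given here.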

How the results depend on the processing

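No paired analysis was possible because the 4 groups hold 1 library each, all with the replicate number 3, and for the same reason no replicate could be left out. Other scalings shifted all genes by at most 0.074 on the log2 scale. The summed difference of the 13 genes was -0.91 with median-of-ratios size factors and -0.93 with centring on the autosomal median for Nons minus day 0, 0.14 with either for Smarca4-4 minus Nons (0.139 and 0.141), and -0.16 and -0.15 for Smarca4-6 minus Nons. For Smarca4-4 minus Smarca4-6 it was 0.30 and 0.29. Scaled to reads off the mitochondrial chromosome, it was -0.10 for Smarca4-6 minus Nons and 0.28 for Smarca4-4 minus Smarca4-6. The median of the 13 genes for Smarca4-6 minus Nons, 0.013, turned to -0.0047 with reads off the chromosome, -0.061 with size factors, -0.049 with centring and -0.032 with a mean log2 CPM of at least 3. Without the 6 genes from mt-Co2 to mt-Nd4l, an alternative chosen after seeing the data, the genes at least 2-fold lower numbered 3 for Nons minus day 0 and 0 for Smarca4-6 minus Nons, and those 2-fold higher for Smarca4-4 minus Smarca4-6 numbered 0. The share of mt-Co1 per kilobase was 42.0%, 44.2%, 40.6% and 37.7% at day 0 and in Nons, Smarca4-4 and Smarca4-6. Over the 7 other genes, also chosen after seeing the data, it was 51.3%, 54.0%, 50.2% and 47.1%. Of 120 values for whole comparisons under alternatives, 95 were classed as unchanged, 21 as moved and 4 as reversed in direction. Sums and shares had to stay within the counting interval, and counts within 1.5 times. Medians were given a wider range, and -0.90 with centring was classed as unchanged beside -0.85 for Nons minus day 0. Some values could not move, such as medians with no filter, since all 13 genes pass it. Among 336 values for single genes, shares included, 171 moved beyond their counting interval. Shares per kilobase, without mt-Co1 or over the 7 other genes are different quantities, so their moves do not measure stability. Of the differences of single genes, 27 moved and 25 did not with size factors. With centring 28 moved and 24 did not, and with reads off the mitochondrial chromosome 5 moved and 47 did not. Adding the reads of Gm10222 moved no share of a library beyond that interval. Limiting the genes to protein-coding ones was not run, since all members are. Windows of 50 bases, added later, gave 51.1% for mt-Co1 and 7.61% for mt-Nd5. Depth limits mt-Nd3 and mt-Nd4l, which had at most 100 reads in any library.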
